A study of Mus musculus with 6 samples.

Results

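The 10 hypoxia response genes followed here were Vegfa, Adm, Egln3, Ankrd37, Slc2a1, Pgk1, Ldha, Pdk1, Car9 and Ndrg1. They were taken by symbol as a list, with no threshold on a measured value, although earlier results of these data were known when the list was made. All 10 were found among the 32285 mouse genes of the feature lists. Their RNA was measured by cell class, and their promoter peaks were compared between tumor glia and host glia, in nuclei of brain tissue from C57BL/6J mice labelled as carrying a brain tumor. Each nucleus had been read with the 10x Multiome assay, which gives RNA and open chromatin (ATAC) from the same nucleus. In both genotypes, progenitors of the ganglionic eminences, the embryonic zone that gives rise to forebrain interneurons, had received piggyBac vectors by in utero electroporation. These vectors integrate Foxr2 and the luciferase Akaluc, each under the CAG promoter and followed by GFP. The Foxr2 p53LOF animals had also received a CRISPR/Cas9 vector with a guide to Trp53, whereas Foxr2 alone carried no p53 loss of function by its label. The study reported aggressive tumors in Foxr2 p53LOF mice and lesions without proliferation in Foxr2 alone mice, so genotype comparisons do not set tumor against tumor. The electroporated cells form only a part of each brain, so that every library also held host cells.

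Counts of 1 library of each genotype were analysed, together with the peak list of a further Foxr2 alone library. There was thus no replicate among the counts analysed and no test was made. All intervals below are exact 95% intervals on UMIs (unique molecules), peak counts or nuclei. They cover counting error only and not the spread between animals, and genotype and library cannot be told apart. After filtering, 8413 nuclei of Foxr2 p53LOF (median 5578 UMIs) and 8327 of Foxr2 alone (median 3632 UMIs) remained, and 95 barcodes occurred in both. RNA levels are in CPM, meaning UMIs of a gene per 1000000 UMIs over all nuclei of a group, and were compared for a gene between groups, not between genes. Foxr2 RNA lay at 82.8 CPM in tumor glia, at 28.7 CPM in host glia and at 9.79 CPM in glia-like nuclei of Foxr2 alone. Trp53 RNA was 53.7 CPM in tumor glia and 35.0 CPM in host glia, a level that does not show whether the guide had edited the gene.

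Cells sense oxygen through prolyl hydroxylases, which mark the alpha subunit of hypoxia-inducible factor (HIF) for degradation by the von Hippel-Lindau ubiquitin ligase when oxygen is plentiful. When oxygen is low, the alpha subunit is kept, pairs with ARNT and binds the core motif A/GCGTG in promoters and enhancers. HIF targets include secreted signals to vessels, the enzymes of anaerobic glycolysis, and the hydroxylase Egln3 itself, which closes a feedback loop. In gliomas, such genes are known to mark tissue around necrosis, and some of them also have high basal levels in healthy glia, endothelium or myeloid cells.

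Tumor glia were defined without the RNA of these genes, from ATAC counts on the Akaluc and GFP vector sequence. Glia-like clusters of Foxr2 p53LOF with at least 3 times the vector rate of immune-like nuclei (8.81 peak CPM, counts on the vector per 1000000 peak counts of a group) were called tumor glia. They comprised cluster 5, which had markers of committed oligodendrocyte precursors (COP-like, 1259 nuclei), and cluster 6 (1097 nuclei), in which markers of oligodendrocyte precursor cells (OPC) and of astrocytes were both raised and Egfr and Rfx4 led. Together these 2356 nuclei had 59.1 vector peak CPM. Host glia were the glia-like clusters under 2 times the immune-like rate, namely oligodendrocyte-like cluster 3 (1526 nuclei) and the OPC-like nuclei of cluster 14 (94 nuclei), with 2.99 vector peak CPM together. Host glia of this library were therefore mostly mature oligodendrocytes, with 22241 CPM summed over 9 oligodendrocyte markers against 2797 CPM in tumor glia, and comparisons with OPC-like and astrocyte-like nuclei of Foxr2 alone are given below for that reason. Cluster 14 alone had 6.71 vector peak CPM, from 4 counts, against 2.71 in cluster 3. The immune-like rate combined 10.5 in immune cluster 4 and 3.17 in immune cluster 9. The host label of cluster 14 thus depended on that reference. GFP RNA was 655 CPM in tumor glia and 190 CPM in host glia, and neuron-like and immune-like nuclei of that library had 76.7 CPM and 255 CPM. GFP RNA was hence also found in classes with few vector counts, and the part of free RNA in this was not tested.

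Promoter sequences are shown for the 4 genes whose promoter was more open in tumor glia (Adm, Egln3, Ldha and Car9) and for 3 genes whose promoter differed little (Vegfa, Slc2a1 and Pgk1), so that the HIF core motif can be read in both sets. Each runs 5′ to 3′ from 250 bases before to 50 bases after a RefSeq start (GRCm38.p6, the assembly of mm10), at chr7:110627407-110627706 (+), chr12:54203825-54204124 (-), chr7:46845554-46845853 (+), chr4:43506776-43507075 (+), chr17:46032328-46032627 (-), chr4:119108495-119108794 (+) and chrX:106186850-106187149 (+). Capitals mark ACGTG or GCGTG on either strand, so that CACGT and CACGC are the same motifs read from the opposite strand and CACGTG counts once on each.
Adm: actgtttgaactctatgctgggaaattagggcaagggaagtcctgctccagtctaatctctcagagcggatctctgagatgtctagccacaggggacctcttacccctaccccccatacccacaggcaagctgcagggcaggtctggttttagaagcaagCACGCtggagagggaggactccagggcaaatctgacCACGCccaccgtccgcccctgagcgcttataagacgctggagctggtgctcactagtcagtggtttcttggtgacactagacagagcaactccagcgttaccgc
Egln3: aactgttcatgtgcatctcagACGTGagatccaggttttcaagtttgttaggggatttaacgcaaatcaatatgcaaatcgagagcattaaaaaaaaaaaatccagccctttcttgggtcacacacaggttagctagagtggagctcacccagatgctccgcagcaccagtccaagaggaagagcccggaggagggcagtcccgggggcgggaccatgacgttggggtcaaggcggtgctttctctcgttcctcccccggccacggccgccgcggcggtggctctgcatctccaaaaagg
Ldha: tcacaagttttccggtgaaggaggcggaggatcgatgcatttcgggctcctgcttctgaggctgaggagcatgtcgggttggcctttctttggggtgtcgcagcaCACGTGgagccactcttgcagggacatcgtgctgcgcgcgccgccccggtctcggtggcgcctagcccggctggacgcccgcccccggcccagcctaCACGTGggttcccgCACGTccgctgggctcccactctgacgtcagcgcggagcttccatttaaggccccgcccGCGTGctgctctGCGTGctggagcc
Car9: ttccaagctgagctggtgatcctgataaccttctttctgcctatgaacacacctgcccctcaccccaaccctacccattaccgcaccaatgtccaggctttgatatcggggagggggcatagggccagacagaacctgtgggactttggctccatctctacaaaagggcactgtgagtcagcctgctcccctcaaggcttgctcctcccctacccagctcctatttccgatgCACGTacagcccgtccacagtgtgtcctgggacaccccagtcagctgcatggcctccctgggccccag
Vegfa: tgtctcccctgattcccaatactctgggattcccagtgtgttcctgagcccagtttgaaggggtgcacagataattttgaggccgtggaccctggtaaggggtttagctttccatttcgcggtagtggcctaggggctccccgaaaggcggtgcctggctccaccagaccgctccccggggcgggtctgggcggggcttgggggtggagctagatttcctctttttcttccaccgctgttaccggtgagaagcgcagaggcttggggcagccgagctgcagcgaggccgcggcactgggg
Slc2a1: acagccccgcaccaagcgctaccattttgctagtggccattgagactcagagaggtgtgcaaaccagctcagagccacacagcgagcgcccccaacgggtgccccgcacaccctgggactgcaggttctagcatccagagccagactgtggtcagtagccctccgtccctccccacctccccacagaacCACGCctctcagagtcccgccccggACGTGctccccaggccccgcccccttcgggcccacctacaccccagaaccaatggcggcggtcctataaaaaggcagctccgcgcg
Pgk1: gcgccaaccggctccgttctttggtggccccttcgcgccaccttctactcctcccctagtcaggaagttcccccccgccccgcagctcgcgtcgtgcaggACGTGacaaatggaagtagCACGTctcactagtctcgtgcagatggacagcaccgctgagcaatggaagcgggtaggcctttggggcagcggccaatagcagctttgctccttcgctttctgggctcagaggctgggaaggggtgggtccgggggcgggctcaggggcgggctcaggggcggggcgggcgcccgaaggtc
Of 32851 RefSeq promoters of 300 bases, 43.8% held at least 1 match to ACGTG or GCGTG, and of the 9 genes with an entry 8 did so in the entry listed first. Ndrg1 was the gene with no entry. The Ldha promoter held 7 matches, a number of 5 or more being found in 1.66% of all promoters, and 2 of its sites were palindromes (CACGTG). Ankrd37 had 4 matches, Adm, Slc2a1, Pgk1 and Pdk1 had 2 each, and Egln3 and Car9 had 1. The Vegfa window shown had none, which says only that these letters were absent from these 300 bases, and a further Vegfa entry (chr17:46025114-46025413) held 2. The number of matches did not sort the promoters by their opening in tumor glia, since Ldha (7), Adm (2), Egln3 (1) and Car9 (1) were the more open ones and Ankrd37 (4), Slc2a1 (2) and Pgk1 (2) were not.

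The secreted signals Vegfa and Adm were both higher in tumor glia. Vegfa, the main growth factor for blood vessels, was at 57.3 CPM in cluster 5 and 62.6 CPM in cluster 6, against 7.12 CPM in oligodendrocyte-like and 27.8 CPM in OPC-like host nuclei, the last from 9 UMIs. Over all tumor glia it was 59.8 CPM against 8.65 CPM in host glia, a log2 ratio of 2.79 (2.32 to 3.30), or 6.91-fold. Adm, the vasodilator peptide adrenomedullin, had 284 UMIs in tumor glia (13.1 CPM) and 9 in host glia (2.05 CPM), a log2 ratio of 2.68 (1.73 to 3.82). Vegfa was thus alike in both tumor clusters, and in the other clusters of Foxr2 p53LOF it lay between 5.35 CPM (neuron-like cluster 16) and 34.1 CPM (immune cluster 4). Neuron-like nuclei of that library together had Vegfa at 12.2 CPM and Adm at 0.551 CPM.

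Egln3, the hydroxylase of the HIF feedback loop, had the highest log2 ratio among the 8 genes that reached 10 CPM in either group. It had 1492 UMIs in tumor glia (68.9 CPM) and 18 in host glia (4.10 CPM), a log2 ratio of 4.07 (3.41 to 4.83), or 16.8-fold. With a minimum of 1000 genes and 1000 peak counts per nucleus the log2 ratio was 3.05 (2.60 to 3.52). By cluster it was 59.3 CPM in cluster 5 and 79.9 CPM in cluster 6, but 3.93 CPM in oligodendrocyte-like nuclei and 2.17 CPM over the neuron-like ones. Egln3 was therefore low in every neuron-like cluster and every glia-like cluster outside the tumor glia, at no more than 6.88 CPM. Ankrd37, a small ankyrin-repeat protein induced by HIF, stood at 2.77 CPM in tumor glia and 0.910 CPM in host glia (60 and 4 UMIs, log2 ratio 1.61, 0.18 to 3.53), below the 10 CPM set for a call. The Ankrd37 gene overlaps Ufsp2 and Lrp2bp on the opposite strand.

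Among the genes of glucose use, Ldha and Pdk1 were more than 2-fold higher in tumor glia, Pgk1 lay at 2-fold, and Slc2a1 did not reach it. Slc2a1, the glucose transporter GLUT1 of the blood-brain barrier, was at 76.2 CPM in cluster 5 and 34.0 CPM in cluster 6, on both sides of the 44.5 CPM of oligodendrocyte-like nuclei. Over all tumor glia its log2 ratio to host glia was 0.42 (0.19 to 0.65). Pgk1, a kinase that yields ATP in glycolysis, was at 108 CPM in tumor glia and 53.9 CPM in host glia, a log2 ratio of 1.01 (0.82 to 1.21). The interval of Pgk1 spans the 2-fold threshold, and its log2 ratio was 0.94 without a group of Pomc-rich tumor nuclei described below. Ldha, the lactate dehydrogenase subunit that favours lactate, was at 100.3 CPM against 31.6 CPM, a log2 ratio of 1.67 (1.42 to 1.92). With a minimum of 1000 genes and 1000 peak counts per nucleus, which brought 202 astrocyte-like nuclei into the host glia, Ldha fell below 2-fold (log2 ratio 0.91) and so did Pgk1 (0.58). Pdk1, which keeps pyruvate out of the mitochondrion by inhibiting pyruvate dehydrogenase, was at 47.2 CPM against 10.5 CPM, a log2 ratio of 2.17 (1.75 to 2.63). Reads of Ldha and Pgk1 may be shared with near-identical pseudogene copies, which the counting could split or drop.

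Car9, a cell-surface carbonic anhydrase that buffers pH and is hardly used by normal brain, gave 159 UMIs in tumor glia (7.35 CPM) and 2 in host glia (0.455 CPM). Its log2 ratio was 4.01 (2.14 to 7.07), yet it stayed below 10 CPM in every main cluster of both libraries. Ndrg1, a stress-responsive gene that mature oligodendrocytes and Schwann cells use at a high level, was the gene that went the other way. It was at 21.5 CPM in tumor glia and 109 CPM in host glia, a log2 ratio of -2.34 (-2.53 to -2.16). Its host level came from oligodendrocyte-like nuclei (117 CPM), since OPC-like host nuclei had 9.25 CPM (3 UMIs), under the 18.6 CPM of cluster 5 and the 24.9 CPM of cluster 6.

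**Figure D1:**
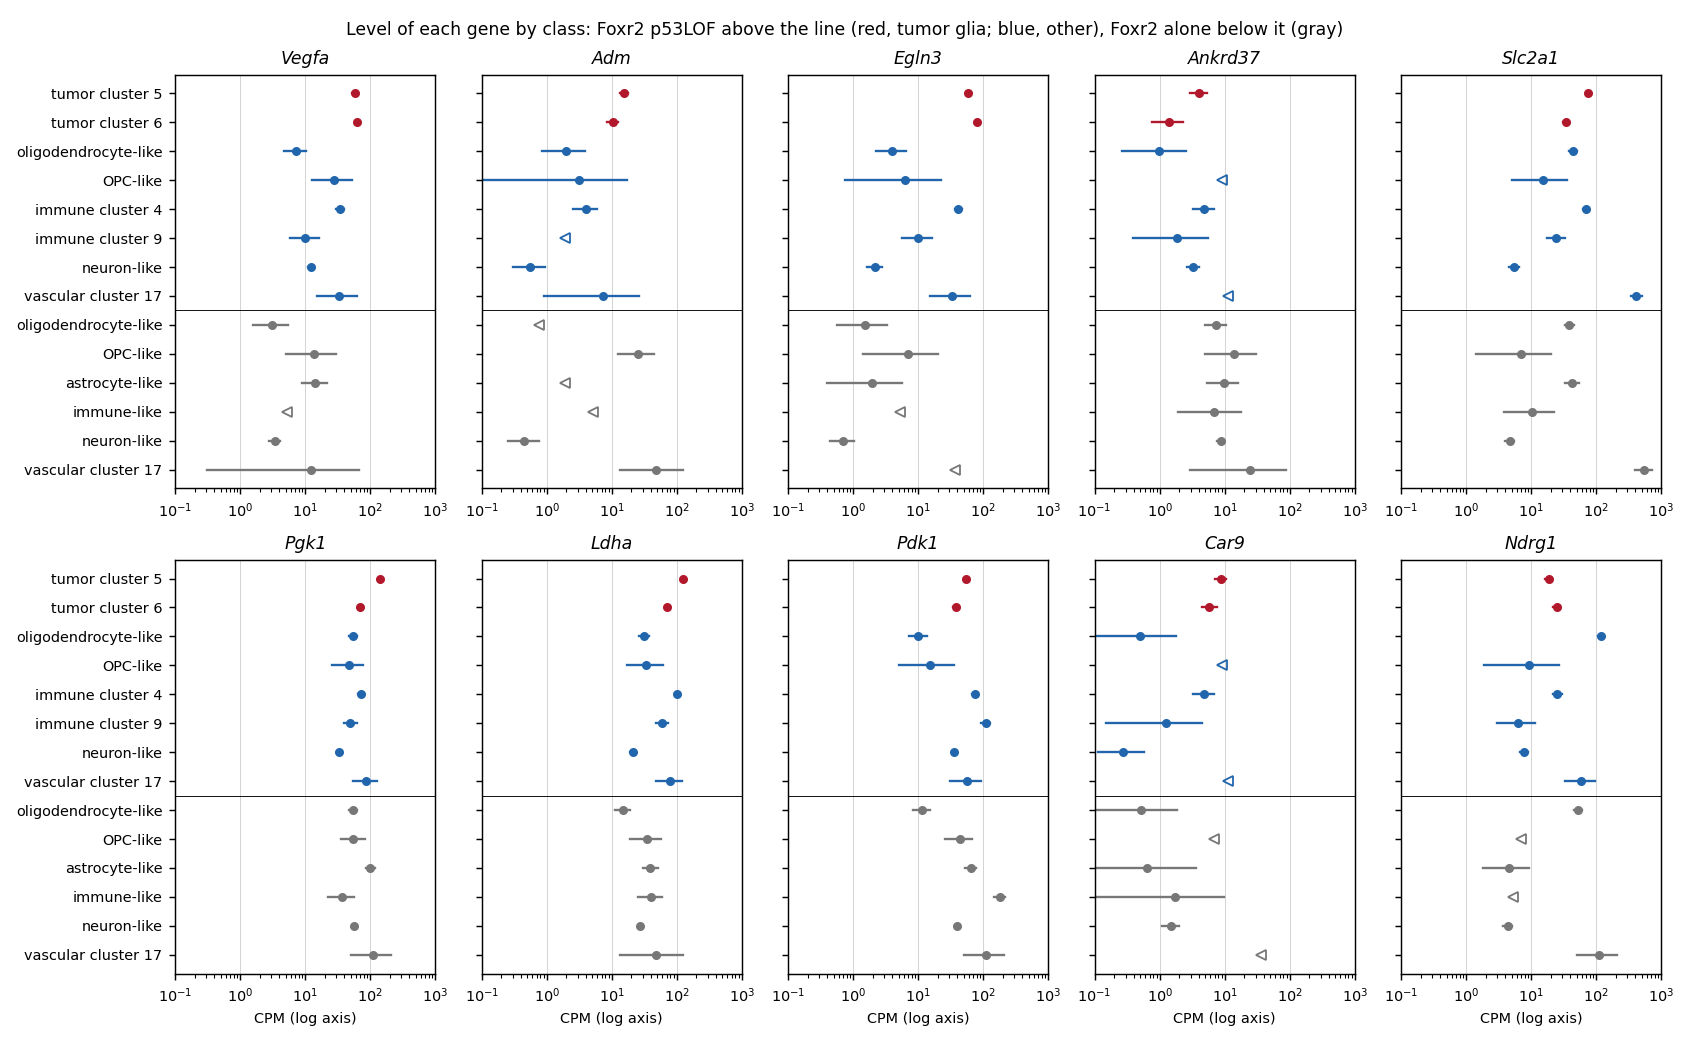
Level of each gene in CPM (log axis) by class or cluster, with exact 95% Poisson intervals for counting error, Foxr2 p53LOF above the line (tumor glia in red, other classes in blue) and Foxr2 alone below it (gray). Open triangles mark 0 UMIs and stand at the level of 3 counts. Vegfa and Egln3 lay at 57.3 to 79.9 CPM in the tumor clusters, Slc2a1 peaked in vascular nuclei (418 and 548 CPM), Pdk1 in immune-like nuclei of Foxr2 alone (182 CPM) and Ndrg1 in oligodendrocyte-like nuclei of Foxr2 p53LOF (117 CPM) and in vascular nuclei of Foxr2 alone (109.5 CPM from 9 UMIs).

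Of the 8 genes at 10 CPM or more in either group, 6 (Vegfa, Adm, Egln3, Pgk1, Ldha and Pdk1) were at least 2-fold higher in tumor glia and 1 (Ndrg1) was at least 2-fold lower. Among the 10458 genes that reached this level, 26.2% were at least 2-fold higher and 10.7% at least 2-fold lower. The median log2 ratio was 1.92 over the 10 genes and 0.38 over all genes that reached 10 CPM in either group. Genes at 10 CPM or more in both groups had a median of 0.27, a general shift that Slc2a1 (0.42) hardly exceeded. All 10 genes summed gave 486 CPM in tumor glia and 264 CPM in host glia, a log2 ratio of 0.88 (0.79 to 0.97), in which the high Ndrg1 of oligodendrocytes offset the other genes. A set of 12 heat shock and immediate early genes was also higher in tumor glia, at 776 CPM against 415 CPM (log2 ratio 0.90, 0.83 to 0.97), as was the mitochondrial share of UMIs, at 0.589% against 0.269%. The part of handling stress or of damaged nuclei in the differences was not tested.

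Against astrocyte-like and OPC-like nuclei of Foxr2 alone, the picture differed by gene. The vector rate was computed for Foxr2 p53LOF only, so that these nuclei were not shown to be host cells. Glia-like nuclei of Foxr2 alone had 58 Foxr2 and 505 GFP UMIs, of which 25 and 231 came from oligodendrocyte-like nuclei, and their 9.79 and 85.2 CPM compared with 2.60 and 19.2 CPM in the neuron-like ones. Cluster 6 was set against the 430 astrocyte-like nuclei of Foxr2 alone, where 4 of 8 genes at 10 CPM or more were at least 2-fold higher, with 23.2% of all genes so. Egln3 was at 79.9 CPM against 1.94 CPM (log2 ratio 5.36, 3.81 to 7.64), and Vegfa at 62.6 CPM against 14.2 CPM (2.14, 1.53 to 2.82). Adm was not seen in astrocyte-like nuclei (0 UMIs) and was at least 5.39-fold higher in cluster 6, with the zero set at 3 counts. Ndrg1, which was lower than in oligodendrocytes, was higher than in astrocyte-like nuclei, at 24.9 CPM against 4.53 CPM (2.46, 1.39 to 3.79). Of the metabolic genes, Ldha was at 71.1 CPM against 39.5 CPM (0.85, 0.47 to 1.25), whereas Pgk1 (70.2 CPM against 100.3 CPM, -0.52) and Pdk1 (38.5 CPM against 64.7 CPM, -0.75) were lower in cluster 6. Slc2a1 was 34.0 CPM against 42.7 CPM, with an interval across 0 (-0.71 to 0.07).

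Cluster 5 was set against the 165 OPC-like nuclei of Foxr2 alone, from which the members gave 87 UMIs in all. Here 6 of 9 genes at 10 CPM or more were at least 2-fold higher, with 22.1% of all genes so. The stress genes were higher in cluster 5 as well, at 950 CPM against 390 CPM (log2 ratio 1.28, 1.07 to 1.51). Slc2a1 had the highest log2 ratio among those with UMIs in both groups, at 76.2 CPM against 6.88 CPM from 3 UMIs (3.47, 1.92 to 5.75). Ndrg1 was also among the 6, at 18.6 CPM against 0 UMIs, at least 2.70-fold higher with the zero set at 3 counts. Egln3 was at 59.3 CPM against 6.88 CPM (3.11, 1.55 to 5.39), Vegfa at 57.3 CPM against 13.8 CPM (2.06, 0.93 to 3.51) and Ldha at 126 CPM against 34.4 CPM (1.87, 1.15 to 2.71). Pdk1 was at 54.8 CPM against 43.6 CPM, with an interval across 0 (-0.32 to 1.07). Adm went the other way at this depth, with 15.4 CPM against 25.2 CPM from 11 UMIs (-0.71, -1.58 to 0.32), and Ankrd37 was lower, with 3.99 CPM against 13.8 CPM from 6 UMIs (-1.79, -3.02 to -0.27). Cluster 6, whose OPC and astrocyte markers were alike, was lower still against the same OPC-like nuclei in both genes, with log2 ratios of -1.27 (-2.17 to -0.22) for Adm at 10.5 CPM and -3.32 for Ankrd37 at 1.38 CPM. Adm was thus more than 2-fold lower in cluster 6 than in these nuclei, though it was higher than in astrocyte-like ones. These comparisons cross from one library to the other. Against oligodendrocyte-like nuclei of its own library, 6 of 8 genes were at least 2-fold higher in cluster 5 (27.5% of all genes) and 5 of 8 in cluster 6 (28.2% of all genes), while Ndrg1 was lower in both (-2.66 and -2.23). Against OPC-like nuclei of Foxr2 p53LOF, where the members gave 51 UMIs, 8 of 8 genes were at least 2-fold higher in cluster 5 (26.0% of all genes). In cluster 6 it was 7 of 8 (22.9%). Log2 ratios there were 1.83 and 1.32 for Pdk1, and 2.32 and 1.76 for Adm, whose intervals crossed 0 (1 UMI). Those of Ndrg1 crossed 0 too (-0.56 to 3.29 and -0.14 to 3.72, 3 UMIs), as did that of Slc2a1 in cluster 6 (-0.10 to 2.77). The stress genes were also higher, with log2 ratios of 1.79 in cluster 5 and 1.07 in cluster 6, beside 1.84 and 1.34 for the summed members. Vegfa, Egln3 and Ldha were hence higher in both tumor clusters than in oligodendrocyte-like and OPC-like nuclei and in astrocyte-like nuclei of Foxr2 alone, by log2 ratios of 0.85 or more, while Pgk1, Pdk1, Slc2a1, Adm and Ndrg1 depended on the class or library chosen. This did not extend to cluster 15 of Foxr2 p53LOF (240 nuclei, 14.5 vector peak CPM), which had astrocyte and immune markers together and was left unnamed and out of both groups. There Ldha was at 138 CPM, Pgk1 at 142 CPM and Slc2a1 at 77.8 CPM, no lower than in cluster 5, whereas Vegfa (22.1 CPM) and Egln3 (25.9 CPM) lay below both tumor clusters. Its stress genes were at 943 CPM and its mitochondrial share was 1.21%. Cluster 15 had Foxr2 at 86.5 CPM and GFP at 573 CPM, beside 82.8 CPM and 655 CPM in tumor glia. Its nuclei were thus not shown to be host cells.

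The tumor clusters themselves differed in the metabolic genes. Slc2a1 (log2 ratio 1.16, 0.98 to 1.35) and Pgk1 (1.02, 0.89 to 1.15) were at least 2-fold higher in cluster 5 than in cluster 6, 2 of 8 genes where 9.92% of all genes were. Both intervals span 2-fold. Cluster 5 also held 289 of the 312 Pomc-led nuclei described below, which had Pgk1 at 260 CPM, and these were not left out of this count. Ldha followed at 126 CPM against 71.1 CPM (0.82, 0.69 to 0.96) and Pdk1 at 54.8 CPM against 38.5 CPM (0.51, 0.32 to 0.69). Vegfa lay at 57.3 CPM and 62.6 CPM, with an interval across 0 (-0.29 to 0.03), and Egln3 was lower in cluster 5 (-0.43, -0.58 to -0.28). The stress genes were higher in cluster 5 as well (log2 ratio 0.72), and so was the mitochondrial share, at 0.827% against 0.317% in cluster 6.

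A group of 312 nuclei led by Pomc and Oacyl, 289 of them from cluster 5, appeared when the clustering was made finer. It had a median of 1539 UMIs per nucleus, 89.8 vector peak CPM and Pomc at 16161 CPM. Against the other tumor glia, 5 of 9 genes were at least 2-fold higher there, with 12.4% of all genes so. Vegfa was at 149 CPM against 56.5 CPM (log2 ratio 1.40, 1.10 to 1.69), Pgk1 at 260 CPM against 103 CPM (1.33, 1.11 to 1.55) and Ldha at 233 CPM against 95.6 CPM (1.29, 1.05 to 1.52). Adm (29.3 CPM against 12.6 CPM, from 21 UMIs) and Ndrg1 (43.3 CPM against 20.7 CPM, from 31 UMIs) were the other ones, while Egln3 was not higher, at 57.3 CPM against 69.1 CPM (-0.27, -0.75 to 0.18). The summed stress genes had a log2 ratio of 1.33 in these nuclei, the median gene one of -0.45 and the mitochondrial share was 1.27%, and the part of RNA quality in these values was not tested. With the Pomc-led nuclei left out, Vegfa (2.71), Adm (2.62), Egln3 (4.08) and Pdk1 (2.13) had log2 ratios to host glia above 1, and Ldha was 3.02-fold higher.

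Among immune-like nuclei of Foxr2 p53LOF, cluster 4 (1324 nuclei, led by Ctsc, Cybb and Lilr4b) and cluster 9 (510 nuclei, with Ly86, Siglech and P2ry12 among its leading genes) differed in the hypoxia response genes. In cluster 4, 4 of 7 genes were at least 2-fold higher, with 15.6% of all genes so. Egln3 was at 41.2 CPM against 10.0 CPM (log2 ratio 2.04, 1.31 to 2.87), Ndrg1 at 25.4 CPM against 6.26 CPM (2.02, 1.10 to 3.11), Vegfa at 34.1 CPM against 10.0 CPM (1.77, 1.03 to 2.60) and Slc2a1 at 69.1 CPM against 24.4 CPM (2.83-fold, log2 interval 1.03 to 2.01). Pdk1 alone was lower in cluster 4, at 73.7 CPM against 109.5 CPM (-0.57, -0.83 to -0.31). The stress genes were higher in cluster 4 as well, at 614 CPM against 327 CPM (log2 ratio 0.91, 0.78 to 1.04). Cluster 4 contained 254 of 314 nuclei of a finer cluster with a median of 8485 UMIs, 24.6 vector peak CPM and 1850 CPM of OPC markers, and the part of doublets in its values was not tested. Without that finer cluster the log2 ratios were 1.88 for Egln3, 1.70 for Vegfa, 1.85 for Slc2a1 and 1.01 for Ldha, which had been 0.77 with it, and 1.08 for the stress genes.

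Slc2a1 was highest in vascular cluster 17 of both libraries, with 418 CPM (76 nuclei) in Foxr2 p53LOF and 548 CPM (29 nuclei) in Foxr2 alone. This cluster had endothelial, mural and fibroblast markers together and was not split. In neuron-like nuclei Slc2a1 had 5.47 CPM for Foxr2 p53LOF and 4.72 CPM for the other library, and Pdk1 at 35.5 CPM and 39.5 CPM. Pdk1 had its highest level in immune-like nuclei of Foxr2 alone, at 182 CPM from 105 UMIs.

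Between genotypes, Egln3 and Vegfa had the highest log2 ratios in glia-like nuclei among the genes at 10 CPM or more. The Foxr2 p53LOF glia-like nuclei, tumor glia included, had Egln3 at 58.0 CPM against 2.02 CPM in Foxr2 alone (log2 ratio 4.84, 4.03 to 5.79), Vegfa at 51.1 CPM against 6.75 CPM (2.92, 2.47 to 3.41), Adm at 11.2 CPM against 1.86 CPM and Ldha at 88.8 CPM against 22.9 CPM. These 4 of 8 genes were at least 2-fold higher, with 22.9% of all genes so, and none was at least 2-fold lower (21.5% of all genes). Ankrd37 was the exception in direction, at 2.46 CPM against 8.44 CPM (-1.78, -2.34 to -1.22), below the level set for a call. The glia-like nuclei of the libraries were of different makeup, tumor glia being most of the 3981 in Foxr2 p53LOF and oligodendrocyte-like nuclei 3024 of the 3624 in Foxr2 alone, at median depths of 4484 and 1262.5 UMIs. In immune-like nuclei, 5 of 7 genes were at least 2-fold higher in Foxr2 p53LOF (18.3% of all genes) and Pdk1 was lower, at 80.9 CPM against 182 CPM (-1.17, -1.47 to -0.85, with 22.2% of all genes at least 2-fold lower). Vegfa (231 UMIs), Egln3 (276 UMIs) and Ndrg1 (170 UMIs) had 0 UMIs in the 425 immune-like nuclei of Foxr2 alone, and were at least 5.63-fold, 6.72-fold and 4.14-fold higher with that zero set at 3 counts. The immune-like nuclei of Foxr2 p53LOF lay in clusters 4 and 9 and those of Foxr2 alone almost all in cluster 12 (417 nuclei), at median depths of 2822 and 1133 UMIs. Genes that mark tumor glia differed in the same direction, with OPC markers at 1074 CPM against 102 CPM, GFP at 255 CPM against 20.8 CPM, and Foxr2 at 34.0 CPM against 0 UMIs. The part of tumor RNA or doublets in the Vegfa and Egln3 differences was not tested. In neuron-like nuclei Vegfa was the 1 of 4 genes at least 2-fold higher (13.4% of all genes), at 12.2 CPM against 3.39 CPM (1.85, 1.54 to 2.18), and no gene was at least 2-fold lower (18.9%). The other genes at 10 CPM or more were lower in Foxr2 p53LOF, with log2 ratios of -0.76 for Pgk1, -0.38 for Ldha and -0.15 for Pdk1, and the 10 genes summed were at 121 CPM against 146 CPM (-0.27, -0.34 to -0.21). The stress genes were lower too (-0.72). Without Pgk1 the summed log2 ratio of the members was -0.037 (-0.117 to 0.042), an interval across 0. Different neurons were compared here, since those of Foxr2 p53LOF lay almost all in clusters 2, 13 and 16, with Slc17a6, Sim1 and Slc6a3 among their leading genes, and those of Foxr2 alone in clusters 1, 7, 8 and 10, with Penk, Sst and Ndst4 among theirs. Neuron type and genotype cannot be told apart in this value.

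Oligodendrocyte-like nuclei were found in both libraries, but as separate clusters. Those of Foxr2 p53LOF formed cluster 3 (median 2451.5 UMIs) and those of Foxr2 alone almost all cluster 0 (median 1171 UMIs), for which no vector rate was computed. Ndrg1, at 117 CPM, was higher in Foxr2 p53LOF than the 52.1 CPM of Foxr2 alone (log2 ratio 1.17, 0.93 to 1.41), and Ldha was 2.10-fold higher (1.07, 0.61 to 1.54). These were the 2 of 5 genes at least 2-fold higher, with 13.2% of all genes so. Slc2a1 (44.5 CPM and 39.1 CPM, -0.13 to 0.50) and Pgk1 (54.5 CPM and 54.6 CPM, -0.28 to 0.28) had intervals across 0. The stress genes went the other way, at 426 CPM against 659 CPM (-0.63, -0.72 to -0.54). GFP RNA in these nuclei was 189 CPM and 58.7 CPM, and the part of free RNA from tumor glia in the Ldha difference was not tested.

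Chromatin at the promoters was compared between tumor glia and host glia of Foxr2 p53LOF, in peaks within 1000 bases of the start of each gene. Values are peak CPM, counts in a peak per 1000000 peak counts of a group. Adm was at 12.6 against 2.99 (log2 ratio 2.08, 1.27 to 3.02) and Egln3 at 31.9 against 7.58 (2.08, 1.56 to 2.63). Ldha, with a pair of peaks, was at 53.1 against 14.6 (1.86, 1.48 to 2.24). The Car9 promoter was at 5.61 against 1.38 (2.03, 0.85 to 3.52), and its peak was called in Foxr2 p53LOF and in neither Foxr2 alone library, whereas the other 9 genes had a promoter peak in all 3 libraries. Adm, Egln3, Ldha and Car9 were thus higher in both RNA and promoter counts than in these mostly oligodendrocyte-like host glia. The Ldha promoter was at 35.2 in the few OPC-like host nuclei, under 2-fold below tumor glia. The Adm promoter was at 1.68 in those nuclei but at 12.0, near the tumor value, in OPC-like nuclei of Foxr2 alone, whose peaks were called separately.

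Vegfa stood apart from these, with RNA 6.91-fold higher and a promoter at 35.7 against 30.4 (0.23, -0.04 to 0.52). Pdk1 was at 46.7 against 32.7 (0.51, 0.26 to 0.79), and Pgk1 at 30.6 against 35.9 (-0.23, -0.50 to 0.04). Slc2a1 (58.9 against 75.4, -0.36) and Ankrd37 (51.9 against 64.9, -0.32) were somewhat less open in tumor glia, the Ankrd37 peak also lying over Lrp2bp. Ndrg1 was at 44.5 against 79.5 (-0.84, -1.03 to -0.64), in the direction of its RNA. Of the 12 promoter peaks, all but that of Car9 had at least 10 peak CPM in either group. Among those, 4 (of Adm and Egln3 and both at Ldha) were at least 2-fold higher and 1, at Ndrg1, just at 2-fold lower. Of the 12589 promoter peaks at that level over all genes, 15.4% were at least 2-fold higher and 4.73% at least 2-fold lower. Summed over the 10 genes the log2 ratio was 0.11 (0.02 to 0.19).

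**Figure D2:**
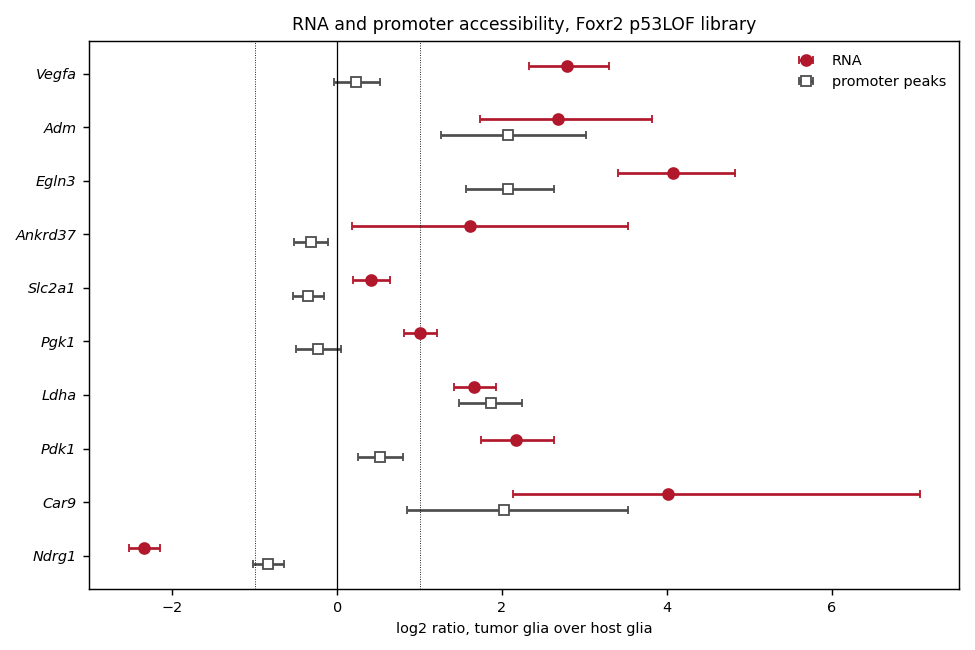
Log2 ratio of tumor glia over host glia in Foxr2 p53LOF for RNA (red circles, CPM) and promoter peaks (open squares, peak CPM), with exact 95% Poisson intervals for counting error. Dotted lines mark 2-fold. RNA and promoter both lay to the right at Adm, Egln3, Ldha and Car9, while Vegfa had RNA at 2.79 and its promoter at 0.23, and Ndrg1 lay to the left in both.

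Promoters that differed little between tumor and host glia had counts in other classes too. The Vegfa promoter was at 30.7 peak CPM in the neuron-like class of Foxr2 p53LOF and at 36.9 in astrocyte-like nuclei of Foxr2 alone, and the Pdk1 promoter at 45.4 and 65.9, but the peak lists of the libraries were called separately. The Egln3 promoter was at 30.1 in cluster 5 and 34.3 in cluster 6, against 6.66 in oligodendrocyte-like and 8.10 in neuron-like nuclei of the same library, with 20.1 in the 94 OPC-like host nuclei. The Ldha promoter was at 73.3 in immune-like and 38.4 in neuron-like nuclei of Foxr2 p53LOF, both above the host glial value of 14.6.

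Within 25 kb of the starts, a distance chosen after the data were seen, lay 48 further peaks, of which 23 had at least 10 peak CPM in either group. Of these 23, 7 were at least 2-fold higher in tumor glia and 6 at least 2-fold lower, against 30.1% and 28.6% of all peaks outside promoters at that level. Both counts were close to these shares, and the median log2 ratio of the 23 was 0.05. The peaks named below are thus single cases and not a trait of the peaks near these genes. At Slc2a1, whose promoter was not more open, a peak at -5820 bases from the start (chr4:119102056-119102891, mm10) was at 10.3 against 0.919 peak CPM (log2 ratio 3.48, 2.10 to 5.38), and another at -2332 bases at 16.6 against 5.97 (1.47). A peak inside Slc2a1, at 3519 bases from the start, went the other way, at 5.61 against 19.8 (-1.82, -2.27 to -1.35). At Adm a peak at 10737 bases was higher (1.41) and one at 19658 bases lower (-1.42). At Vegfa the peaks at 1130 and 4260 bases into the gene had log2 ratios of 0.05 and 0.12, and 1 peak 21564 bases downstream of the start had 1.08. At Egln3 a peak in the gene at 11261 bases from the start (chr12:54191686-54192599) was at 21.8 against 7.35 (1.57, 1.04 to 2.14). At Ndrg1 the 4 peaks inside the gene beyond its promoter had log2 ratios of -1.30 to -2.35, the lowest at 10.5 against 53.9 peak CPM.

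**Figure D3:**
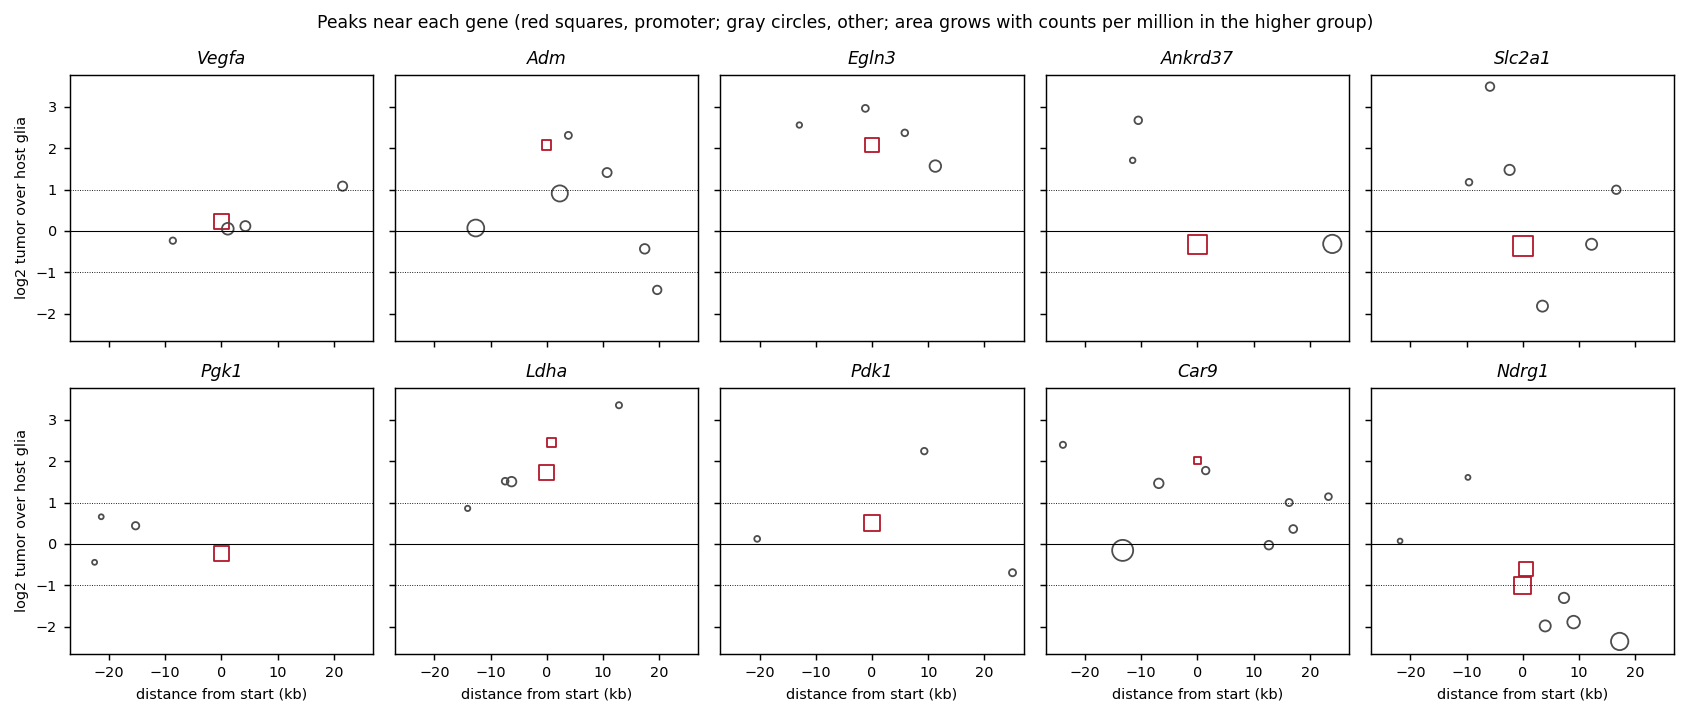
Log2 ratio of tumor glia over host glia in Foxr2 p53LOF for each peak within 25 kb, by distance from the start in kb (positive downstream), with promoter peaks as red squares and other peaks as gray circles whose area grows with peak CPM. Dotted lines mark 2-fold, and 1 Egln3 peak with 0 counts in host glia is not drawn. All peaks drawn at Egln3 and 5 of 6 at Ldha lay above 1, those inside Ndrg1 lay at or below -0.60, and the Slc2a1 peak at -5820 bases lay at 3.48.

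Other genes of the pathway, from lists by function, were compared in the same way between tumor and host glia, where 26.2% of all genes at 10 CPM or more were at least 2-fold higher and 10.7% at least 2-fold lower. These host glia were mostly mature oligodendrocytes. The lists are given against them only, so differences between tumor glia and oligodendrocytes in cell class cannot be told apart here from differences between tumor and host. Among HIF regulators, 1 of 9 was at least 2-fold higher, a smaller share than over all genes, and 2 were lower. Egln1, the main oxygen-sensing hydroxylase, was at 54.8 CPM against 26.6 CPM (log2 ratio 1.04, 0.77 to 1.33), Hif3a, a HIF alpha subunit often seen as a restraint on the others, at 2.40 CPM against 70.3 CPM (-4.87, -5.32 to -4.44), and Epas1 (HIF-2 alpha) at 6.98 CPM against 19.1 CPM (-1.45, -1.85 to -1.05). Hif1a itself was at 156 CPM against 101 CPM (0.64, 0.49 to 0.78). Among 16 genes of glycolysis and lactate transport, 10 were at least 2-fold higher (26.2% of all genes) and 0 lower (10.7%), with a median log2 ratio of 1.41 against 0.38 over all genes. The highest were Hk2, the hexokinase of the entry step (3.84), Pfkp, a phosphofructokinase (3.14), and Pfkfb4, a regulator of that step (3.02), while Gapdh (0.18) and Aldoc (0.14) hardly differed.

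Of 21 other known hypoxia targets, 14 reached 10 CPM in tumor glia or in the same mostly oligodendrocyte-like host glia. Of these, 8 were at least 2-fold higher in tumor glia and 0 lower, beside the same 26.2% and 10.7% of all genes. Plod2, a collagen lysyl hydroxylase, was at 89.7 CPM against 8.87 CPM (log2 ratio 3.34), and Slc2a3, the neuronal glucose transporter GLUT3, at 44.0 CPM against 7.96 CPM (2.47). Among those that did not reach 2-fold were Bnip3l (-0.56), Ddit4 (-0.07), Higd1a (-0.14) and Mxi1 (0.02). Among receptors for the Vegfa and Adm signals, 4 of 7 reached 10 CPM, 3 of them at least 2-fold higher (26.2% of all genes) and 1 lower (10.7%). Flt1, a receptor that binds Vegfa, was at 41.5 CPM against 3.41 CPM (3.61), and the co-receptors Nrp1 (2.73) and Nrp2 (1.47) were higher too, whereas Calcrl, the Adm receptor, was at 8.96 CPM against 26.2 CPM (-1.55). Kdr, the main Vegfa receptor of endothelium, was at 3.05 CPM in tumor glia and 2.50 CPM in host glia.

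To count the nuclei in which several of the genes were seen, 1000 UMIs were drawn from each nucleus that had as many. Such shares rise with the summed level of the genes alone and so do not show whether the genes occurred together. At least 2 of the 10 genes were then found in 182 of 2278 tumor glia (7.99%, 6.91 to 9.18, 78 nuclei left out) and in 40 of 1606 host glia (2.49%, 1.79 to 3.38, 14 left out). Immune-like nuclei of Foxr2 p53LOF had 6.32% and neuron-like nuclei 0.702%. Without thinning the shares were 54.6% and 11.5% for tumor and host glia, at median depths of 7761.5 and 2489.5 UMIs. The share was 9.55% in cluster 5, 6.30% in cluster 6 and 17.5% in the Pomc-led nuclei (78 of 312 left out), and 6.85% in tumor glia without the latter.

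Tumor glia with a UMI of Vegfa, Egln3, Slc2a1, Pgk1 or Ldha also had more of the other 9 genes. In the 149 thinned nuclei with a Vegfa UMI the other 9 genes summed to 886 CPM, against 364 CPM in the 2129 nuclei without it, a log2 ratio of 1.29 (1.01 to 1.55). The median over all genes was -0.04. It is no baseline for the split, since genes without a UMI stand at 3 counts in it. In the split by Ankrd37, with 9 nuclei with a UMI, the same median was 2.67. The stress genes had a log2 ratio of 0.62 (0.39 to 0.84) in the same split. Split by Egln3 (139 nuclei with a UMI), the other genes had a log2 ratio of 0.77 (0.45 to 1.08) and the stress genes one of -0.32 (-0.63 to -0.02). Split by Slc2a1 the ratio was 1.33 (1.03 to 1.62), by Pgk1 0.82 and by Ldha 0.86. In these splits the stress genes were higher too, with log2 ratios of 0.83 (0.58 to 1.07) by Slc2a1, 0.51 (0.31 to 0.71) by Pgk1 and 0.44 (0.23 to 0.65) by Ldha. The stress genes were thus higher beside 4 of these 5 genes and lower beside Egln3, and their part in the ratios was not tested.

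The pattern was also seen inside single clusters. In cluster 6 the log2 ratios were 1.76 by Vegfa, 0.95 by Egln3 and 2.05 by Slc2a1, and in cluster 5 without the Pomc-led nuclei they were 0.92, 0.96 and 0.96. Immune cluster 4 had 1.11, 1.89 and 1.01. In host glia, where Vegfa and Egln3 had under 30 nuclei with a UMI, the ratios were 0.10 by Slc2a1 (-0.70 to 0.80), 0.11 by Pgk1 (-0.61 to 0.74), 0.31 by Ldha (-0.52 to 1.02) and -0.25 by Ndrg1 (-0.95 to 0.38, 152 nuclei with a UMI), intervals that all include 0 and do not show that the genes were unrelated there.

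**Figure D4:**
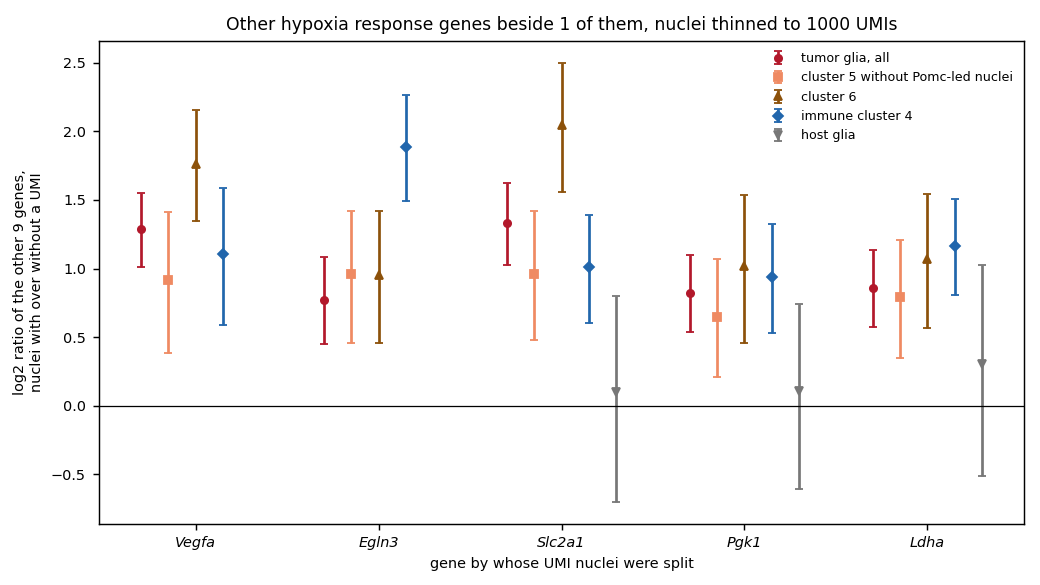
Log2 ratio of the other 9 genes summed, nuclei with over nuclei without a UMI of the gene on the x axis, after thinning each nucleus to 1000 UMIs, with exact 95% Poisson intervals for counting error. Symbols stand for all tumor glia, tumor clusters 5 (without Pomc-led nuclei) and 6, immune cluster 4 and host glia. Tumor and immune values lay between 0.65 and 2.05 with intervals above 0, and the 3 host glial intervals drawn crossed 0, the split by Ndrg1 not being drawn.

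Over the 20 groups formed by clusters within libraries, the genes most like the summed hypoxia response genes in log2(CPM + 1), among 15691 genes, were Eif4g2 (Pearson r = 0.92), Rhoa (0.92), Fas (0.92), Naf1 (0.91), Kif5b (0.91), Ddx27 (0.91), Ddx3x (0.91), Ahnak (0.91), Ltv1 (0.90) and Cysltr2 (0.90). These points share libraries and differ in depth and composition, and the values are a description. Of these, Fas, a death receptor, was at 33.4 CPM in tumor glia and 2.96 CPM in host glia, and Ahnak, a giant scaffold protein, at 88.1 CPM and 15.5 CPM. Each member against the other 9 had its highest r at Slc2a1 (0.83) and Ldha (0.70), and values near 0 at Pdk1 (0.07) and Ankrd37 (-0.10), the genes that were high in immune-like nuclei and in Foxr2 alone, respectively.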

How the data were processed

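Nuclei of 3 Multiome libraries (1 Foxr2 p53LOF, 2 Foxr2 alone) had been isolated, sequenced and aligned by the authors with Cell Ranger ARC 2.0.0 to mm10 with added vector sequences. Raw counts of UMIs per gene and of ATAC events per peak, with barcodes and features, were deposited by the authors. The matrix of the further Foxr2 alone library was not analysed here. Nuclei were kept with at least 400 genes, at least 400 fragments (peak counts divided by 2) and at most 5% mitochondrial UMIs, within upper limits taken from the study. Doublets were removed with Scrublet (expected rate 8%), which marked 299 (3.43%) and 529 (5.97%) nuclei. The libraries were clustered together without integration with scanpy 1.11.5 (2000 variable genes without members, listed genes or vector features, 30 components, 20 neighbours, Leiden resolution 0.5, leidenalg 0.10.2). Clusters were named by markers and by their 10 leading genes (at least 50 CPM, pseudocount 10, chosen after the data were seen, with endothelial, mural and fibroblast names treated as 1 vascular kind). Cluster 6 is given by number because its OPC and astrocyte markers were alike.

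UMIs and peak counts were summed per group. Ratios have exact conditional Poisson intervals and shares exact binomial (Clopper-Pearson) ones. Peak counts were divided by 2 for the intervals, since 80.7% and 82.9% of nonzero counts were even. A gene was called at 2-fold with at least 10 CPM in either group, a group at 0 standing at 3 counts. Genes named were the 10 members, up to 3 per list and direction past 2-fold, and the 10 most alike; Hif1a, Kdr and the listed genes said not to reach 2-fold were added after their values were seen. A listed gene that this rule selects is not reported here. Thinning was 1 seeded draw per nucleus, and splits of tumor glia are shown for members with a UMI in at least 90 thinned nuclei, a limit set after the data were seen. Ratios of all genes were checked on simulated Poisson counts. These hold no spread between nuclei, free RNA or doublets, so the check covers the arithmetic only. Members and lists were chosen with earlier results of these data known. Overlapping or antisense genes (at Adm, Ankrd37, Slc2a1, Car9 and Ndrg1) may share reads. Alternatives changed the filters, doublets, resolution, vector threshold, scaling, promoter window and thinning.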

Additional observations from a re-analysis of the deposited data

How the results depend on the processing

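The alternatives run gave the summed and the single gene differences the same direction, though some of them compared other groups. With doublets kept, a cluster of 1841 Foxr2 p53LOF nuclei with neuron markers was left unnamed, so the neuron-like difference of -0.21 did not include it. The summed promoter ratio had an interval across 0 in some alternatives, as with the minimum of 1000 genes and 1000 peak counts (0.06, -0.02 to 0.14). Of the summed and median differences, shares and counts, 83 of 95 values stayed within counting error or 1.5 times the count. The vector threshold of 5 times left the groups as they were, since the tumor clusters stood at 6.09 and 7.48 times, so its values could not move. With the fragment limits set on peak counts, the immune-like rate was 2.11 vector peak CPM and the groups changed. Tumor glia were then 4 clusters (2621 nuclei), among them the OPC-like cluster (100 nuclei) and an astrocyte-like one with immune markers (251 nuclei). Only 1 cluster (1633 nuclei) was left as host glia. The median over the 10 genes has no interval and was counted as unmoved at 1.38 against 1.92. Of the 8 alternatives for each single gene in tumor over host glia, 3 moved Ndrg1 beyond counting error, 2 each Pgk1 and Ldha, and 1 each Vegfa, Egln3 and Slc2a1. Ankrd37 was not counted as moved, though its interval crossed 0 in some of them, as with the minimum of 1000 genes and 1000 peak counts (0.79, -0.29 to 2.07). The summed tumor to host log2 ratio moved to 0.66 with a minimum of 1000 genes and 1000 peak counts, 0.97 with doublets kept and 0.62 with the median gene scaled to 0. The glia-like genotype difference moved to 0.98 with that minimum and to 1.28 without Pgk1, its gene with the most UMIs, and the neuron-like one from -0.27 to -0.037 without Pgk1, with an interval across 0. The share of tumor glia with at least 2 members moved to 6.71% at Leiden resolution 1.0, 18.0% thinned to 2000 UMIs, 54.6% unthinned and 6.85% without the Pomc-led nuclei (chosen after seeing the data), and that of host glia to 7.34% and 11.5% in the thinned and unthinned cases. The number of members at least 2-fold higher in tumor glia ranged from 4 to 6 where the 10 CPM minimum was kept. It was 8 with no minimum CPM, which also admitted Ankrd37 and Car9 with their few host UMIs. With the minimum of 1000, Ldha had a log2 ratio of 0.91, Pgk1 of 0.58 and Egln3 of 3.05. Host glia then included 202 nuclei named astrocyte-like that also had immune markers. Scrublet marked only 2 nuclei of Foxr2 alone, so doublets remained there. No paired analysis was made because the counts of only 1 library of each genotype were analysed. Depth limits Ankrd37, Car9 and the 94 and 165 OPC-like nuclei, whose ratios rest on few UMIs.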
